A study of Mus musculus with 12 samples.

Results

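The NRF2 redox defence genes are 10 genes of the 56748 listed in the count table, chosen by name: Nfe2l2 itself, Nqo1, Gclm, Gclc, Slc7a11, Txnrd1, Srxn1, Gsr, Prdx1 and G6pdx. All 10 passed the filter on low counts, which left 15033 genes to test. They were followed in bone marrow-derived macrophages (BMDM) of C57BL/6J mice, grown with M-CSF (20 ng/mL) and made M2-like by 48 hours of IL4 (10 ng/mL). Exposure then lasted 72 hours, in 4 conditions of 3 libraries each. Untreated control BMDM received plain medium. The eGFP supernatant came from YUMM5.2 cells, a mouse melanoma line, that carried a doxycycline (Dox)-inducible eGFP gene. The Ifnb1eGFP supernatant came from YUMM5.2 cells in which Dox switched on both Ifnb1 and eGFP, and was brought to 1500 pg/mL IFNβ, with the eGFP supernatant diluted by an equal factor. Recombinant IFNβ (rIFNβ) was given at 1500 pg/mL without supernatant. Dox (1 μg/mL, 72 hours) was given to the donor cells of both supernatants, so any Dox carried over and the products of the melanoma cells came together. All 4 conditions shared M-CSF and IL4, and the labels give no age of the bone marrow donors. The design names 3 mice per condition, but no source ties a library to a mouse.

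NRF2, the product of Nfe2l2, is a transcription factor that KEAP1 holds in the cytoplasm and hands to the proteasome. Oxidants and electrophiles modify KEAP1, and NRF2 then pairs with small MAF proteins on antioxidant response elements (ARE) in the DNA. Its targets import cystine, make glutathione, keep thioredoxin reduced and supply NADPH. In macrophages this program limits damage from the oxidants that the cells themselves produce. NRF2 is controlled mainly as a protein, and only transcripts were measured here.

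The ARE core, spelled TGACNNNGC on either strand, was searched in RefSeq promoter windows of build GRCm38.p6, which run from 250 bases before to 50 bases after a gene's start. Windows were found for 8 of the 10 genes, all but Gclc and Gsr, and 6 of the 8 held a core. Txnrd1 has 3 windows, of which 1 held it. Among all genes with a window, 14.0% held one. The 6 stretches are shown with up to 20 bases on each side, because they let a reader compare the letters of genes that changed with those of G6pdx, which did not pass the test. Each is read so that the core, in capitals, runs in the same direction, and the strand shown is that of the letters.
Nfe2l2 chr2:75704875-75704913, minus strand: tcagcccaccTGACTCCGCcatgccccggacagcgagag
Gclm chr3:122245403-122245451, minus strand: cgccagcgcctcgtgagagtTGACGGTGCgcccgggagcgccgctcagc
Txnrd1 chr10:82859094-82859142, minus strand: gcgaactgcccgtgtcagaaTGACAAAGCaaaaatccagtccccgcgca
Srxn1 chr2:152105532-152105573, minus strand: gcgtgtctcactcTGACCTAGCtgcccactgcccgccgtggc
Prdx1 chr4:116685446-116685494, minus strand: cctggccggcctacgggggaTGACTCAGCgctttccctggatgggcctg
G6pdx chrX:74428909-74428957, plus strand: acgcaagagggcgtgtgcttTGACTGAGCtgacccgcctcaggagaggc
The Prdx1 core overlaps an AP-1 site, spelled TGANTCA on either strand, which 8.97% of all genes with a window held. The windows of Nqo1 and Slc7a11 hold no core. The whole windows of Prdx1 and Slc7a11, the 2 genes with the largest differences, are given 5′ to 3′ along each gene, with the core in capitals.
Prdx1 chr4:116685349-116685648, plus strand: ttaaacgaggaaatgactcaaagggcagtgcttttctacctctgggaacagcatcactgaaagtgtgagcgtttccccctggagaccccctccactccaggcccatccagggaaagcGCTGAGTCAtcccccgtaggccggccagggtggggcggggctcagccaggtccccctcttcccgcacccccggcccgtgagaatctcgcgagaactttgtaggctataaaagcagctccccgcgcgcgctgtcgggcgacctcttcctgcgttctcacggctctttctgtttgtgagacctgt
Slc7a11 chr3:50443564-50443863, minus strand: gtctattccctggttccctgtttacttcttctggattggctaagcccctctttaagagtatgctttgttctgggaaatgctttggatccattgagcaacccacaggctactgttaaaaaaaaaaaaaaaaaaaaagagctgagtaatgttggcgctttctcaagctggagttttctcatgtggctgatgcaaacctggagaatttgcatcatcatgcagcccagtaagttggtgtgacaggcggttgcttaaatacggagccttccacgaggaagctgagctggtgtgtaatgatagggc
The core of G6pdx begins 57 bases before its start, and those of Prdx1 and Gclm 133 and 134 bases before theirs. A match is a description of letters and no measure of binding. A window without a core says nothing of sequence outside the window or of other spellings.

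Library totals ran from 31526034 to 45348457 counts. Macrophage markers (6 of 6 tested) summed to 5310 to 6380 CPM (TMM-scaled counts relative to library size) over all libraries. Within that sum Itgam ranged over 1424 to 1627 CPM without IFNβ and 317 to 426 CPM with it, and Fcgr1 over 48.8 to 112 and 1111 to 1294 CPM. Of the 4 M2-like markers, Mrc1 reached 609 to 839 CPM and Retnla 45.4 to 71.3 CPM, but Arg1 only 0.208 to 0.877 CPM. Chil3 stood at 63.2 to 81.5 CPM without IFNβ and 106 to 129 CPM with it. Markers of T, B and NK cells and of melanoma cells stayed below 1 CPM in sum. The 6 neutrophil markers summed to 4.28 to 5.72 CPM in both conditions without IFNβ and 0.208 to 0.985 CPM in both with it, with S100a8 at 4.19 to 5.72 and 0.089 to 0.531 CPM, and the 5 dendritic markers, mostly Zbtb46, to 1.24 to 1.61 and 0.273 to 0.480 CPM. Fibroblast markers summed to 26.3 to 73.4 CPM without and 32.3 to 49.8 CPM with IFNβ. Within that sum Col1a1 ranged over 10.6 to 22.6 CPM without and 6.67 to 9.51 CPM with IFNβ. Pdgfra went the other way, from 0.877 to 3.24 CPM without to 3.53 to 7.41 CPM with it, and Col1a2, Col3a1 and Pdgfrb overlapped. The part of such other cells in the results was not tested. In bulk RNA, fewer cells of a type and less RNA per cell cannot be told apart. The 6 interferon-response genes summed to 83.5 to 148 CPM in 5 of the 6 libraries without IFNβ, and to 578 CPM in eGFP supernatant replicate 2. With IFNβ they summed to 6220 to 7180 CPM. Replicate 2 of the eGFP supernatant therefore stood apart. The members' differences with Ifnb1eGFP supernatant, and the total calls there among members and pathway genes, are given also without it. The counts of single pathway lists include it.

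With IFNβ, 8 of the 10 genes were lower in all 6 exposed libraries than in all 6 others, the exceptions being Nqo1 and G6pdx. Over all genes tested this held for 21.2%. Without eGFP supernatant replicate 2 it held for the same number, 8, and for 21.7% of all genes. In the mean over both conditions Slc7a11 was 8.06 times, Prdx1 4.53 times, Txnrd1 2.46 times, Gclm 2.19 times and Srxn1 1.92 times as high without IFNβ as with it, while Gclc, Gsr and Nfe2l2 ran at 1.38, 1.28 and 1.18 times. Without that library Slc7a11 ran at 8.13, Prdx1 at 4.63, Txnrd1 at 2.51, Gclm at 2.23 and Srxn1 at 1.96 times. Gclc, Gsr and Nfe2l2 then ran at 1.402, 1.301 and 1.19 times. Nqo1 and G6pdx, whose libraries overlapped, ran at 1.58 and 0.934 times, and without that library at 1.65 and 0.939 times.

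**Figure D1:**
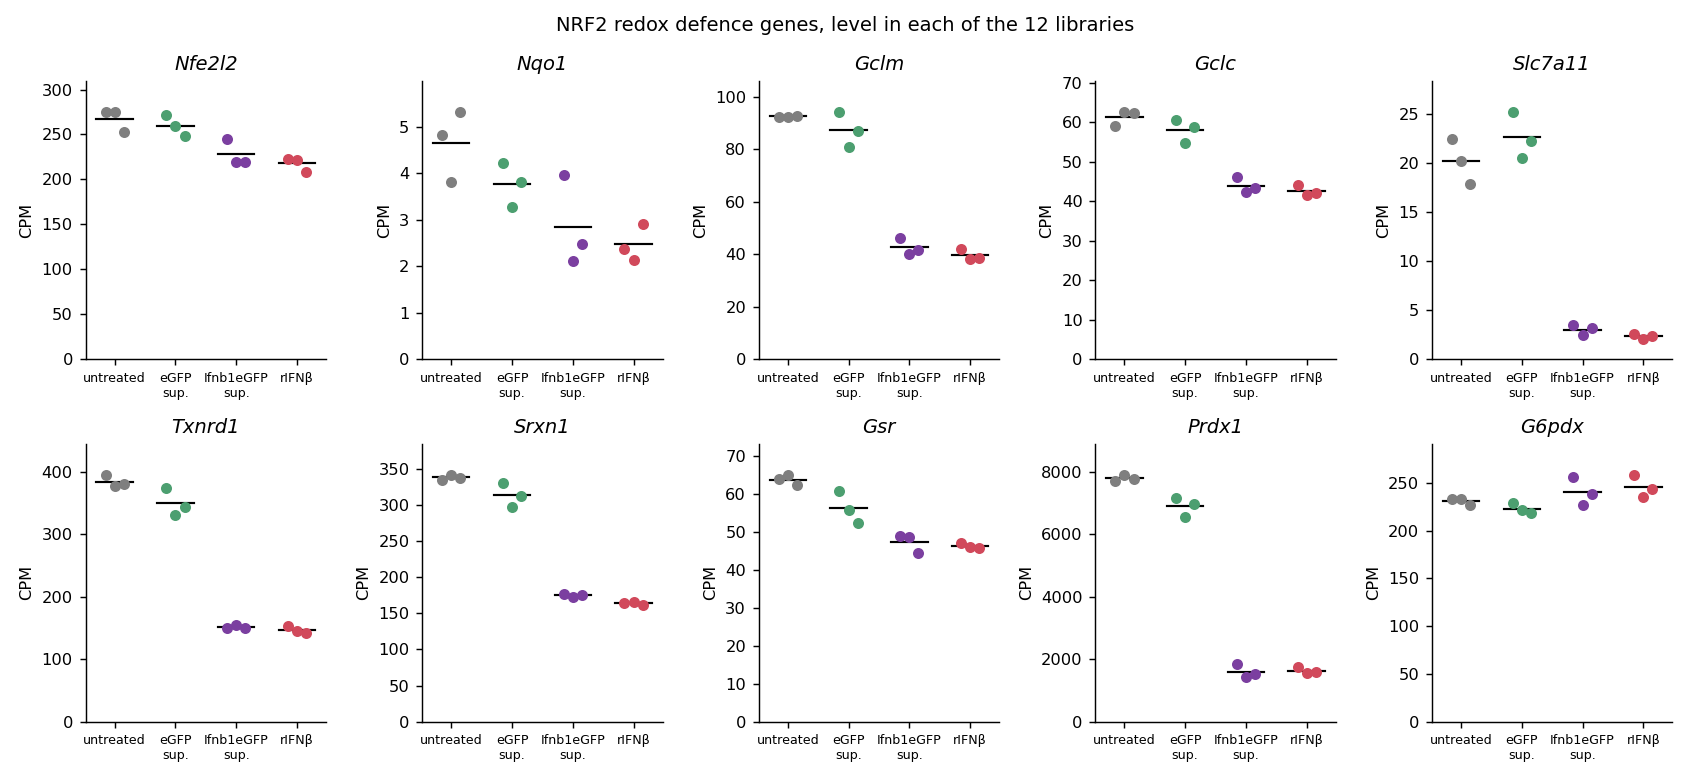
Level of each NRF2 redox defence gene in CPM (vertical axes, from 0) in the 12 libraries, 3 points per condition in the order of replicate number, with the condition mean as a line (sup., supernatant). Slc7a11, Prdx1, Txnrd1, Gclm and Srxn1 sit far lower in both conditions with IFNβ, and G6pdx does not.

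The regulator came first. Nfe2l2 (chr2:75504739-75534985, GRCm39, minus strand) stood at 275, 275 and 253 CPM in the untreated libraries, and at 272, 259 and 249 CPM with eGFP supernatant. It stood at 246, 219 and 219 CPM under Ifnb1eGFP supernatant and at 223, 222 and 208 CPM with rIFNβ. The conditions with and without IFNβ did not overlap, although the highest exposed library (246 CPM) came close to the lowest unexposed one (249 CPM). The log2 fold change was -0.19 ± 0.06 (SE) for Ifnb1eGFP against eGFP supernatant, with an adjusted p of 0.0179 in edgeR's quasi-likelihood test, and -0.30 ± 0.06 for rIFNβ against untreated control (adjusted p = 0.00122). The first of these calls was lost in 4 of 12 alternatives, with an adjusted p of up to 0.0745 when eGFP supernatant replicate 1 or Ifnb1eGFP supernatant replicate 3 was left out, 0.055 without Ifnb1eGFP supernatant replicate 2, and 0.0544 with only those conditions in the fit.

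Cystine import and glutathione synthesis came next. Slc7a11 (chr3:49846975-50398070, minus strand) encodes xCT, the chain of the cystine/glutamate antiporter that carries the amino acids. It stood at 22.5, 20.2 and 17.9 CPM in the untreated libraries, 25.3, 20.5 and 22.3 CPM with eGFP supernatant, 3.46, 2.43 and 3.15 CPM under Ifnb1eGFP supernatant and 2.55, 2.02 and 2.35 CPM with rIFNβ. Every exposed library was far below every other, on 86.3 to 145 counts against 692 or more. Slc7a11 fell by 2.91 ± 0.14 on the log2 scale with Ifnb1eGFP supernatant (adjusted p = 1.67e-08) and by 3.13 ± 0.15 with rIFNβ (adjusted p = 1.05e-08), the largest differences among the 10 genes.

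Glutamate-cysteine ligase carries out the rate-limiting step of glutathione synthesis and has a modifier subunit, Gclm, and a catalytic one, Gclc. Gclm (chr3:122039126-122065061, plus strand) stood at 92.5, 92.3 and 92.9 CPM in the untreated libraries, 94.3, 81.0 and 86.9 CPM with eGFP supernatant, 46.0, 40.2 and 41.4 CPM under Ifnb1eGFP supernatant and 42.0, 38.1 and 38.6 CPM with rIFNβ. Gclc (chr9:77661797-77701770, plus strand) stood at 58.9, 62.6 and 62.3, at 60.5, 54.8 and 58.8, at 46.1, 42.4 and 43.3 and at 44.1, 41.5 and 42.1 CPM in the same order. Both subunits fell in both comparisons, the modifier by more. Gclm fell by 1.04 ± 0.07 with Ifnb1eGFP supernatant (adjusted p = 1.54e-07) and by 1.23 ± 0.07 with rIFNβ (adjusted p = 3.67e-08) on the log2 scale. Gclc fell by 0.40 ± 0.05 (adjusted p = 4.48e-05) and by 0.53 ± 0.05 (adjusted p = 4.76e-06). The 95% intervals of the 2 subunits did not overlap in either comparison, from -1.18 to -0.89 for Gclm and from -0.51 to -0.29 for Gclc with Ifnb1eGFP supernatant. Gsr (chr8:34142551-34188192, plus strand), glutathione reductase, which returns oxidized glutathione to its reduced form, moved less. It stood at 62.4 to 65.2 CPM in the untreated libraries, 52.4 to 61.0 CPM with eGFP supernatant, 44.7 to 48.9 CPM under Ifnb1eGFP supernatant and 45.9 to 47.2 CPM with rIFNβ. Its log2 fold changes were -0.25 ± 0.06 (adjusted p = 0.00313) and -0.46 ± 0.06 (adjusted p = 3.32e-05).

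The thioredoxin arm held the most abundant of the genes. Prdx1 (chr4:116532123-116558398, plus strand), a peroxiredoxin that removes hydrogen peroxide, stood at 7697, 7904 and 7769 CPM in the untreated libraries, 7145, 6555 and 6961 CPM with eGFP supernatant, 1853, 1445 and 1519 CPM under Ifnb1eGFP supernatant and 1747, 1556 and 1589 CPM with rIFNβ. Its lowest library held 58174 counts, so counting error was small. Prdx1 fell by 2.10 ± 0.09 with Ifnb1eGFP supernatant (adjusted p = 4.46e-09) and by 2.26 ± 0.09 with rIFNβ (adjusted p = 2.34e-09) on the log2 scale. Txnrd1 (chr10:82669785-82733546, plus strand), the cytosolic reductase that keeps thioredoxin active, stood at 395, 376 and 380 CPM in the untreated libraries, 373, 331 and 344 CPM with eGFP supernatant, 150, 154 and 150 CPM under Ifnb1eGFP supernatant and 153, 145 and 142 CPM with rIFNβ. Srxn1 (chr2:151947436-151957687, plus strand), sulfiredoxin, which repairs overoxidized peroxiredoxins such as that of Prdx1, stood at 335, 342 and 338, at 330, 297 and 313, at 177, 172 and 175 and at 164, 166 and 162 CPM in the same order. Peroxiredoxin, its repair enzyme and the thioredoxin reductase were thus lower together, with no overlap between libraries with and without IFNβ. Txnrd1 fell by 1.21 ± 0.05 (adjusted p = 5.36e-09) and by 1.39 ± 0.05 (adjusted p = 1.71e-09), and Srxn1 by 0.84 ± 0.04 (adjusted p = 2.32e-08) and by 1.04 ± 0.04 (adjusted p = 3.79e-09).

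Nqo1 and G6pdx were the members whose libraries with and without IFNβ overlapped. In the mean Nqo1 was still lower with IFNβ, and G6pdx was not. Nqo1 (chr8:108113835-108129934, minus strand), a quinone reductase often used as a readout of NRF2, was at the low end of the range, at 4.83, 3.80 and 5.32 CPM in the untreated libraries, 4.22, 3.27 and 3.81 CPM with eGFP supernatant, 3.97, 2.11 and 2.48 CPM under Ifnb1eGFP supernatant and 2.37, 2.14 and 2.91 CPM with rIFNβ. These rest on 80 to 225 counts a library. The libraries of rIFNβ lay below untreated control, and Nqo1 fell by 0.92 ± 0.23 on the log2 scale there (adjusted p = 0.00507). Those of the 2 supernatants overlapped through Ifnb1eGFP supernatant replicate 1. The log2 fold change was -0.40 ± 0.23 (adjusted p = 0.152) with all libraries and -0.75 (adjusted p = 0.00793) without that replicate. G6pdx (chrX:73449857-73472819, minus strand), glucose-6-phosphate dehydrogenase, makes NADPH at the entry to the pentose phosphate pathway. It stood at 227 to 234 CPM in the untreated libraries, 219 to 229 CPM with eGFP supernatant, 227 to 257 CPM with that of Ifnb1eGFP cells and 236 to 259 CPM with rIFNβ. The libraries of rIFNβ thus lay above untreated control, and those of the 2 supernatants overlapped. G6pdx was not lower in either comparison, with log2 fold changes of 0.11 (95% interval -0.01 to 0.22, adjusted p = 0.0981) and 0.09 (-0.02 to 0.20, adjusted p = 0.167). The first passed the threshold without Ifnb1eGFP supernatant replicate 2, at 0.15 (adjusted p = 0.0291), and in the fit with a replicate block, at 0.11 (adjusted p = 0.0423). Ikbkg overlaps G6pdx on the other strand over 526 exonic bases and had its own, separately listed counts of 2568 to 4960 a library, up to 52.2% of the number listed for G6pdx. No source states the strand setting of the counting, so reads of that overlap cannot be told apart. Overlapping genes of the other members had counts of at most 2.48% of the number of their member where they are listed, and the pseudogene Prdx1-ps had 0 counts. The near copy G6pd2 had at most 5.1 counts in any library and was not tested.

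Against all genes, 8 of the 10 fell with Ifnb1eGFP supernatant, where 25% of genes tested were called lower, and 9 of the 10 fell with rIFNβ, where 24.6% were. No member was called higher, beside 30.1% and 30.7% of all genes. Without eGFP supernatant replicate 2 the number with Ifnb1eGFP supernatant was again 8, while the genes called lower over all genes went from 3761 to 3327. The log2 fold changes were then -2.98 for Slc7a11, -2.14 for Prdx1, -1.25 for Txnrd1, -1.09 for Gclm, -0.88 for Srxn1, -0.50 for Nqo1, -0.44 for Gclc, -0.26 for Gsr, -0.19 for Nfe2l2 and 0.10 for G6pdx. The median log2 fold change of the 10 genes was -0.62 with Ifnb1eGFP supernatant and -0.98 with rIFNβ, beside 0.03 and 0.04 over all genes tested. Past the thresholds of the study's methods (log2 fold change of 2 or more in size, adjusted p up to 0.01), Slc7a11 and Prdx1 were left in both comparisons. Over all genes 2.62% and 2.78% were lower at these thresholds.

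**Figure D2:**
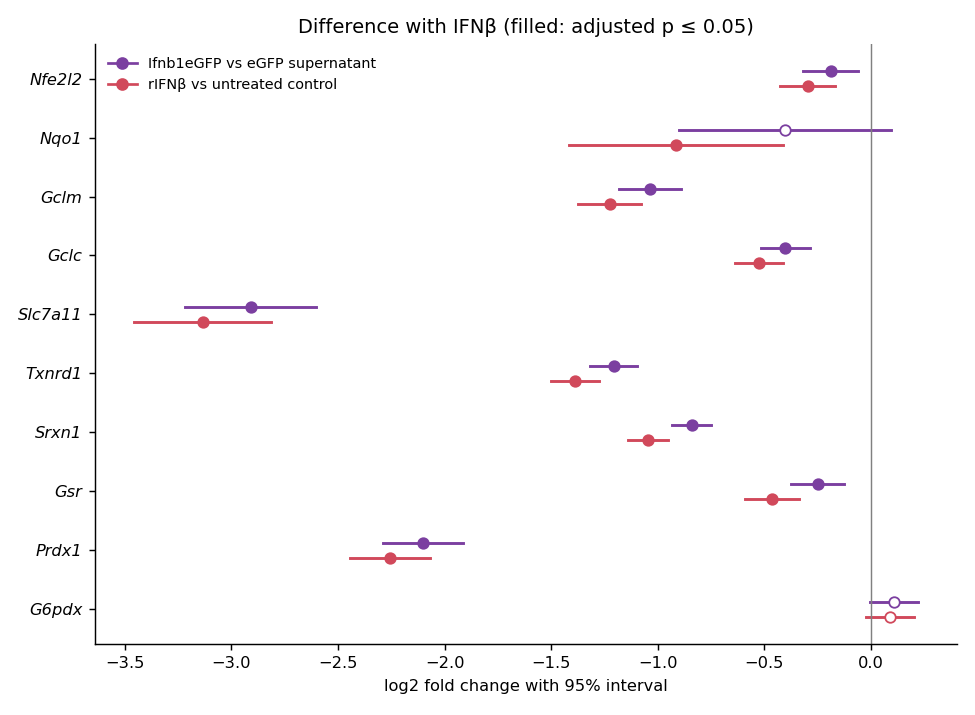
Log2 fold change (horizontal axis) of each NRF2 redox defence gene with its 95% interval, for Ifnb1eGFP against eGFP supernatant and for rIFNβ against untreated control, filled where the adjusted p was at most 0.05. Slc7a11 at -2.91 and -3.13 and Prdx1 at -2.10 and -2.26 lie farthest from 0, and both intervals of G6pdx include 0.

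The order of the 10 genes per kilobase of annotated exon changed with IFNβ. In untreated control Prdx1 led at 1872 ± 25.4 CPM per kb (SD, n = 3), followed by Txnrd1 at 54.2 ± 1.39, Nfe2l2 at 49.0 ± 2.33, Srxn1 at 36.0 ± 0.396, G6pdx at 35.7 ± 0.567, Gclm at 11.6 ± 0.0351, Gclc at 9.78 ± 0.323, Gsr at 9.21 ± 0.206, Nqo1 at 1.69 ± 0.282 and Slc7a11 at 1.3 ± 0.150. The libraries of Srxn1 and G6pdx overlapped, as did those of Nqo1 and Slc7a11, and all other neighbours were apart. With rIFNβ Prdx1 still led at 392 ± 24.4 CPM per kb, but Nfe2l2 (39.9 ± 1.51) and G6pdx (38.0 ± 1.80), which overlapped each other, now stood above Txnrd1 (20.7 ± 0.754) and Srxn1 (17.5 ± 0.195). Gclc (6.79 ± 0.218) and Gsr (6.68 ± 0.105), overlapping, stood above Gclm (4.97 ± 0.270), and Slc7a11 (0.149 ± 0.0172) stayed last below Nqo1 (0.899 ± 0.143). In untreated control the modifier subunit was thus above the catalytic one per kb, and with rIFNβ below it. Which stands higher depends on the exon length used (7.956 kb for Gclm, 6.266 kb for Gclc). The lengths of the transcripts expressed were not measured. With Ifnb1eGFP supernatant the order was that of rIFNβ, with Gclc at 7.01 ± 0.311, Gsr at 6.84 ± 0.351 and Gclm at 5.35 ± 0.383 CPM per kb, and Nfe2l2 (41.7 ± 2.80) apart from G6pdx (37.2 ± 2.30). With eGFP supernatant it differed from untreated control in that G6pdx (34.5 ± 0.847) stood above Srxn1 (33.4 ± 1.78) and Slc7a11 (1.46 ± 0.155) above Nqo1 (1.37 ± 0.174), both pairs overlapping.

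Supernatant by itself was compared in the absence and in the presence of IFNβ, with the same libraries as above, so these values are not independent of those with IFNβ. For eGFP supernatant against untreated control no member was called, by edgeR or by DESeq2, and 3 had an unadjusted p under 0.05 (Txnrd1, Srxn1 and Gsr). Over all genes 0.299% were called and 8% had such a p. The 3 libraries of Txnrd1, Srxn1, Gsr and Prdx1 lay below all 3 of untreated control, which held for 7.52% of all genes. The log2 fold changes were -0.14 for Txnrd1 (95% interval -0.25 to -0.03, adjusted p = 0.452), -0.11 for Srxn1 (-0.20 to -0.02, adjusted p = 0.503), -0.18 for Gsr (-0.30 to -0.05, adjusted p = 0.345) and -0.18 for Prdx1 (-0.36 to 0.00, adjusted p = 0.635). In 9 of the 10 genes the value was below 0, beside 7358 of 15033 genes tested, Slc7a11 being the exception at 0.17. The members share libraries, so their signs are not independent observations. Replicate 2 of the eGFP supernatant had the raised interferon-response genes. It was the lowest of its condition for Gclm, Gclc, Txnrd1, Srxn1, Prdx1, Slc7a11 and Nqo1. Without it the values were -0.10 for Txnrd1, -0.07 for Srxn1, -0.17 for Gsr and -0.14 for Prdx1. The calls over all genes then went from 45 to 16, and no member was called.

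For Ifnb1eGFP supernatant against rIFNβ, the same comparison in the presence of IFNβ, no member was called by either tool, and Slc7a11 had an unadjusted p under 0.05. Over all genes 0.16% were called and 8.57% had such a p. Slc7a11 differed by 0.39 (95% interval 0.05 to 0.74, adjusted p = 0.572). Srxn1 differed by 0.09 (0.00 to 0.19, adjusted p = 0.581), with all 3 libraries of the supernatant above all 3 of rIFNβ, as for 8.22% of all genes. For the other members called in both IFNβ comparisons the interval lay within -0.20 and 0.25. A difference of the size seen with IFNβ in Gclm, Slc7a11, Txnrd1, Srxn1 or Prdx1 lies outside these intervals. Without Ifnb1eGFP supernatant replicate 2 the calls over all genes rose from 24 to 1051, and those among the 10 genes stayed at 0.

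Whether the difference with IFNβ itself depended on supernatant was tested as an interaction, the difference with Ifnb1eGFP supernatant minus that with rIFNβ. It was above 0 for all 10 genes, beside 7152 of 15033 genes tested, with a median of 0.18 on the log2 scale beside -0.01. As above, the members share libraries, so their signs are not independent observations. No member was called by edgeR or DESeq2, but DESeq2 gave no adjusted p for Nqo1 and Slc7a11. Over all genes edgeR called 0%, with 661 genes (4.4%) at an unadjusted p under 0.05, and DESeq2 called 16. Of the members, Srxn1 (0.20 ± 0.06), Gsr (0.21 ± 0.08) and Txnrd1 (0.18 ± 0.07) had an unadjusted p under 0.05, at an adjusted p of 0.926 each. Without eGFP supernatant replicate 2 the values were 0.17 for Srxn1, 0.21 for Gsr and 0.14 for Txnrd1. The supernatant effect averaged over both IFNβ states gave no called member with either tool, with 1 gene, Slc7a11, at an unadjusted p under 0.05 (0.28 ± 0.10, adjusted p = 0.300), beside 11.4% of all genes with such a p and 0.905% called.

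**Figure D3:**
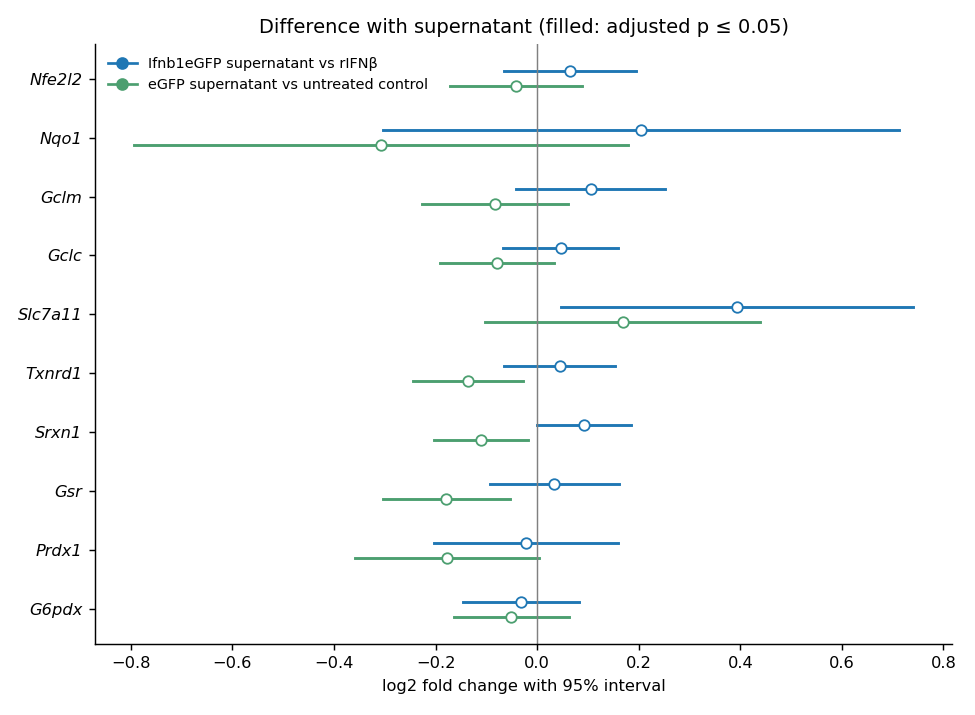
Log2 fold change (horizontal axis) of each NRF2 redox defence gene with its 95% interval, for Ifnb1eGFP supernatant against rIFNβ and for eGFP supernatant against untreated control. All points are open, since no adjusted p was at most 0.05, and the widest intervals are those of Nqo1 and Slc7a11.

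The wider redox network was described with 76 further genes in 6 lists, of which 72 were tested. With Ifnb1eGFP supernatant 42 fell and 17 rose, with a median log2 fold change of -0.30, and with rIFNβ 39 fell and 19 rose, with a median of -0.32. Without eGFP supernatant replicate 2 the first numbers were 38 and 16. Of the genes named below, Rpia was no longer called then (0.24, adjusted p = 0.0737), and Keap1 (0.93) and Slc3a2 (1.16) were. Blvrb of the other NRF2 targets, Gpx4 of the glutathione list, and Txn2 and Prdx5 of the thioredoxin list lost their lower calls too. The list counts below include that library. Over all genes tested, 25% were called lower and 30.1% higher with Ifnb1eGFP supernatant, and 24.6% and 30.7% with rIFNβ. That excess of higher calls depended on the processing. RLE factors gave 4123 higher and 4101 lower with Ifnb1eGFP supernatant, and 4124 and 4110 with rIFNβ. DESeq2 gave 4054 and 3952, and 4051 and 3967.

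The KEAP1-NRF2 regulators went both ways, with 5 higher and 3 lower of 10 with Ifnb1eGFP supernatant and 5 and 4 with rIFNβ. The 30% lower with Ifnb1eGFP supernatant was near the 25% of all genes, and with rIFNβ 40% stood beside 24.6%. Higher were 50% in each, beside 30.1% and 30.7% of all genes. Keap1, which targets NRF2 for destruction, rose from 44.3 ± 6.0 CPM (SD, n = 3) with eGFP supernatant to 80.5 ± 16.1 CPM under Ifnb1eGFP supernatant and from 43.3 ± 1.62 CPM in untreated control to 93.9 ± 5.39 CPM with rIFNβ, log2 fold changes of 0.86 ± 0.13 (adjusted p = 0.000177) and 1.12 ± 0.13 (adjusted p = 2.28e-05). Keap1 transcript thus moved opposite to most of the 10 genes. Bach1, a repressor that competes with NRF2 at AREs, rose by 0.32 ± 0.04 (adjusted p = 1.53e-05) and 0.25 ± 0.04 (adjusted p = 0.000127). Sqstm1, or p62, which draws KEAP1 into autophagy and is itself an NRF2 target, rose by 0.70 ± 0.06 (adjusted p = 1.12e-06) and 0.78 ± 0.06 (adjusted p = 4.2e-07). Rbx1, a subunit of the ubiquitin ligase that KEAP1 serves, rose by 0.40 and 0.31, and Mafk by 0.61 and 0.79. Of the other small MAF genes, Maff fell, with log2 fold changes of -1.74 ± 0.17 (adjusted p = 5.82e-06) and -2.03 ± 0.18 (adjusted p = 1.81e-06), and Mafg by 0.47 and 0.35. Gsk3b, a kinase that marks NRF2 for another ligase, fell by 0.20 and 0.31, and Cul3 fell by 0.15 with rIFNβ (adjusted p = 0.025). Mafk, Mafg, Gsk3b and Cul3 were named after their values were seen.

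Of 19 other NRF2 targets of detoxification, heme and export, 13 fell and 2 rose with Ifnb1eGFP supernatant, and 12 fell and 2 rose with rIFNβ. The share that fell was 68.4% and 63.2%, beside 25% and 24.6% of all genes. Ephx1, microsomal epoxide hydrolase, went from 162 ± 3.97 to 57.5 ± 1.81 CPM and from 196 ± 4.65 to 63.1 ± 3.29 CPM, log2 fold changes of -1.49 ± 0.05 (adjusted p = 7.8e-10) and -1.64 ± 0.05 (adjusted p = 3.44e-10). Gstm1, a glutathione transferase, fell by 1.18 ± 0.04 and 1.24 ± 0.04 (adjusted p = 2.48e-09 and 1.54e-09). The iron store Fth1, ferritin heavy chain, went from 13310 ± 261 to 8190 ± 217 CPM and from 13310 ± 328 to 7441 ± 85.2 CPM (adjusted p = 2.01e-08 and 4.22e-09). Hmox1, heme oxygenase, fell by 0.89 ± 0.07 (adjusted p = 9.62e-07) and 0.84 ± 0.07 (adjusted p = 1.4e-06). The gene of this list past the study's thresholds was Gsta3, with log2 fold changes of -3.24 ± 0.21 and -3.43 ± 0.21 from 6.08 ± 1.08 and 6.40 ± 0.285 CPM. With rIFNβ Maff was past them too. The genes that rose were Osgin1 (0.53 and 0.83) and Sesn2 (0.40 and 0.59), named like Gsta3 after their values were seen. Ephx1 was also the single pathway gene called in a supernatant comparison, with a log2 fold change of -0.28 ± 0.05 for eGFP supernatant against untreated control (adjusted p = 0.0309), a call that was lost when any of the 6 libraries was left out, and -0.21 ± 0.03 over both IFNβ states (adjusted p = 0.0142).

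Glutathione synthesis and use had 6 lower and 2 higher of 10 tested with Ifnb1eGFP supernatant and 6 and 3 with rIFNβ. Lower were thus 60% in each, beside 25% and 24.6% of all genes. The 30% higher with rIFNβ was near the 30.7% of all genes. Slc3a2, the heavy chain that partners xCT and several other amino acid transporters, rose from 272 ± 11.9 to 589 ± 61.6 CPM and from 291 ± 12.8 to 615 ± 22.4 CPM, by 1.12 ± 0.07 (adjusted p = 1.67e-07) and 1.08 ± 0.07 (adjusted p = 1.98e-07) on the log2 scale. The 2 chains of the cystine antiporter thus moved in opposite directions. Glrx, glutaredoxin, which uses glutathione to reduce protein disulfides, rose from 128 ± 7.72 to 418 ± 11.8 CPM and from 113 ± 5.34 to 387 ± 6.12 CPM (adjusted p = 7.66e-10 and 4.24e-10). With rIFNβ Ggt5, named after its value was seen, rose by 0.90 (adjusted p = 0.00496). Gpx3, a secreted glutathione peroxidase, fell by 1.23 ± 0.12 and 0.96 ± 0.12 (adjusted p = 3.53e-06 and 2.82e-05).

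In the thioredoxin and peroxiredoxin system 9 of 13 fell and 2 rose with Ifnb1eGFP supernatant, and 7 fell and 3 rose with rIFNβ. Those that fell made up 69.2% and 53.8%, beside 25% and 24.6% of all genes. Txn1, thioredoxin itself, fell by 0.52 ± 0.05 and 0.54 ± 0.05 (adjusted p = 2.61e-06 and 1.72e-06). Sesn1, a sestrin, fell by 1.06 ± 0.05 and 1.10 ± 0.05, and Txnrd3, the testis-enriched reductase, by 0.86 ± 0.06 and 0.83 ± 0.06 from 9.07 and 8.97 CPM. Prdx4, the peroxiredoxin of the endoplasmic reticulum, rose from 53.6 ± 2.45 to 84.0 ± 3.32 CPM and from 51.8 ± 2.70 to 90.3 ± 4.91 CPM (adjusted p = 2.16e-06 and 3.45e-07), opposite to Prdx1. Sesn3 rose by 0.29 and 0.25, and Txnrd2, the mitochondrial reductase, by 0.27 with rIFNβ, both named after their values were seen.

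Of 9 genes of the pentose phosphate pathway and NADPH supply, 5 fell and 3 rose in both comparisons. The 33.3% that rose was near the share of all genes called higher, 30.1% and 30.7%. The 55.6% that fell stood beside 25% and 24.6%. Pgd, which makes NADPH after G6pdx and its partner lactonase, went from 540 ± 24.9 to 261 ± 22.6 CPM and from 583 ± 10.3 to 280 ± 9.78 CPM (adjusted p = 7.72e-08 and 6.43e-08). Idh1, the cytosolic isocitrate dehydrogenase and another NADPH source, fell by 0.77 ± 0.07 and 0.85 ± 0.07 (adjusted p = 1.88e-06 and 7.56e-07), and Taldo1, transaldolase, by 0.73 ± 0.08 and 0.67 ± 0.08 (adjusted p = 1.42e-05 and 2.93e-05). The entry enzyme G6pdx did not pass the test while Pgd fell. H6pd (0.28 and 0.45), Rpia (0.22 and 0.39) and Rpe (0.22 and 0.13) rose, named after their values were seen.

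Of 11 genes of superoxide production and removal, 6 fell and 3 rose with Ifnb1eGFP supernatant and 5 fell and 3 rose with rIFNβ. The 27.3% that rose in each was near the 30.1% and 30.7% of all genes. The 54.5% and 45.5% that fell stood beside 25% and 24.6%. Cat, catalase, which breaks down hydrogen peroxide, went from 411 ± 32.9 to 216 ± 8.23 CPM and from 440 ± 24.0 to 230.4 ± 9.48 CPM (adjusted p = 3.02e-07 and 2.51e-07). Ncf4, a cytosolic subunit of the phagocyte oxidase, fell by 0.59 ± 0.08 with Ifnb1eGFP supernatant (adjusted p = 4.74e-05) and by 0.57 ± 0.08 with rIFNβ (adjusted p = 6.36e-05). Cybb, a membrane subunit of the oxidase (0.44 and 0.45), and Ncf1, the oxidase's organizer (0.26 and 0.37), rose instead. So did Nos2 (1.71 and 1.67), the inducible nitric oxide synthase, on 1 to 5 counts a library without and 9 to 13 with IFNβ. All 3 were named after their values were seen. Cyba, the other membrane subunit and named likewise, went from 452 ± 44.4 CPM with eGFP supernatant to 297 ± 99.8 CPM under Ifnb1eGFP supernatant (log2 fold change -0.60). With rIFNβ Cyba stood at 360 ± 21.1 CPM, against 483 ± 18 CPM in untreated control.

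**Figure D4:**
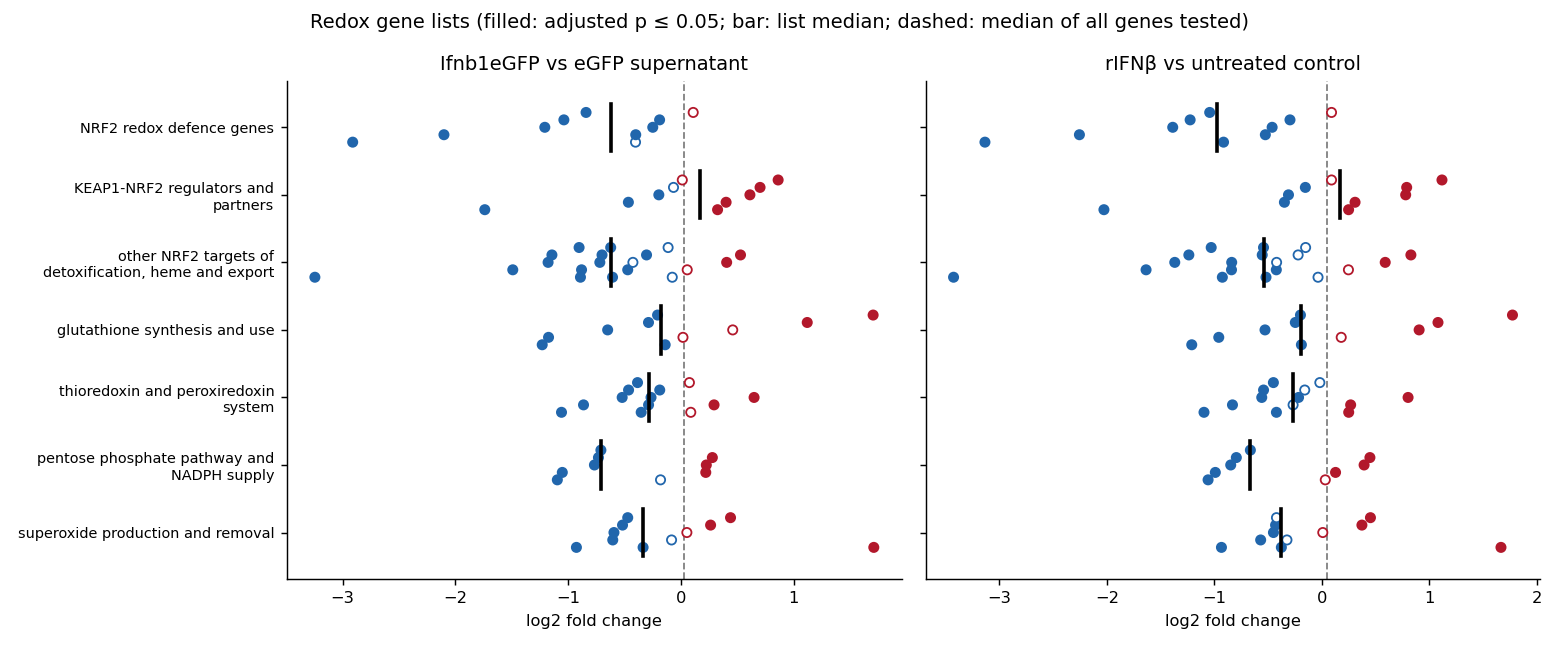
Log2 fold change (horizontal axes) of each gene tested, by list, for Ifnb1eGFP against eGFP supernatant (left) and rIFNβ against untreated control (right), red above 0 and blue below, filled where the adjusted p was at most 0.05, with list medians as bars and the median of all genes tested dashed. The medians of the NRF2 redox defence genes, -0.62 and -0.98, lie left of the dashed lines at 0.03 and 0.04, and the regulators spread to both sides.

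The genes with the pattern most like each member over the 12 libraries, by Pearson's r of log2 CPM among 15032 others, were Esd for Gclm (0.999), Mmp12 for Prdx1 (0.999), Septin11 for Srxn1 (0.998), Abcc1 for Txnrd1 (0.998), Dbi for Slc7a11 (0.997), Glipr1 for Gclc (0.993), Cd300lb for Nfe2l2 (0.991), Elp5 for Gsr (0.980), Dsel for Nqo1 (0.950) and Lipo3 for G6pdx (0.926). Abcc1, an exporter of glutathione conjugates, is itself among the other NRF2 targets, and fell by 0.90 and 1.03 on the log2 scale. Mmp12, the macrophage elastase, went from 8664 to 1027 CPM and from 9495 to 1013 CPM. For Srxn1, the gene next in rank was Txnrd1 (0.997). The 12 points share 4 conditions of 3 libraries each, so these values mostly restate the step between conditions. Within conditions, after each condition's mean was removed, r between members ran from 0.128 (Nqo1 and Txnrd1) to 0.904 (Prdx1 and G6pdx), although Prdx1 and G6pdx had r = -0.606 over all libraries. All members of a library share its scaling and depth.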

How the data were processed

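BMDM were sequenced as TruSeq Stranded Total RNA libraries. According to the submitters' processing notes and the study's methods, the authors used RSEM 1.3.3 and deposited expected counts per gene, without normalization. The notes name both GRCm39 and mm10 as the build. Gene positions and exon lengths here are those of GRCm39. Values were rounded (12% were not whole), since count models need whole numbers. Genes passing filterByExpr (15033 of 56748) were scaled by TMM and fitted in 1 edgeR 4.0.16 quasi-likelihood model (R 4.3.3) over all 12 libraries, with Benjamini-Hochberg adjustment over all genes tested and calls at an adjusted p of at most 0.05. SE was the log2 fold change divided by the square root of F. The log2 CPM used for the correlations had a prior count of 2. The script was tested on simulated data with changes in far fewer genes than were called here. That test does not cover scaling under a shift this broad. CPM per kb used the length of all annotated exons of a gene joined. Replicates of a condition differed by more than counting error (5.34 to 54.0 times it, by chi-square). The widest spread was within Ifnb1eGFP supernatant, at 17.0 to 54.0 times, and no pair of another condition was above 18.6. The p-values set each difference against the spread between these libraries, which the fit estimated over all 4 conditions, and not against a spread between known mice.

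The 10 genes were fixed by name, and they and the gene lists were chosen with earlier results of these data known. Named from the lists were Keap1, Bach1, Hmox1, Slc3a2, Txn1 and G6pd2, the 3 genes of each list with the smallest adjusted p for Ifnb1eGFP against eGFP supernatant, and for each member the gene most like it. A gene that this rule takes from the superoxide list is not reported here. Alternatives were DESeq2 1.42.0, RLE factors, library totals, no filter, only the conditions compared, the replicate number as a block, each library left out and the study's thresholds.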

Additional observations from a re-analysis of the deposited data

Results flagged for a closer look

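Srxn1 lay in all 3 libraries of Ifnb1eGFP supernatant above all 3 of rIFNβ, but in all 3 of eGFP supernatant below all 3 of untreated control, so that supernatant went with opposite signs in the presence and absence of IFNβ. The log2 fold changes were 0.09 and -0.11. The interaction was 0.20 ± 0.06, with an unadjusted p of 0.00584 and an adjusted p of 0.926 in edgeR's quasi-likelihood test over all genes, so the difference was not called. The outlier test was not run, since each condition has 3 libraries.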

How the results depend on the processing

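With rIFNβ against untreated control, the 9 calls and their directions held in every alternative run but the study's thresholds. With Ifnb1eGFP against eGFP supernatant the number of members called was 7 to 9 with 1 library left out, and 113 of 120 values of single members kept their direction and side of the threshold, the other 7 being those of Nfe2l2, Nqo1 and G6pdx. At the study's thresholds the members called went from 8 to 2 and from 9 to 2, and the other pathway genes from 59 to 1 and from 58 to 2. With 1 library left out the latter were 52 to 60 and 54 to 57.

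For other pathway genes, the count for Ifnb1eGFP supernatant against rIFNβ was 0, but 1 with DESeq2 and 0 to 11 with 1 library left out, 11 being without Ifnb1eGFP supernatant replicate 2. For eGFP supernatant against untreated control the count of 1 became 2 with RLE factors, 4 with DESeq2, 2 with the replicate block, and 0 without a filter, with only the conditions compared, at the study's thresholds and without any 1 library (0 to 0). For supernatant over both IFNβ states the count of 1 became 3 with RLE factors, 3 with library totals, 5 with DESeq2, 4 with the replicate block, 0 at the study's thresholds and 0 to 8 with 1 library left out, again highest without Ifnb1eGFP supernatant replicate 2. The causes were not tested.

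Values near 0 changed sign. Without a filter the interaction of G6pdx was -0.0048, and supernatant over both IFNβ states was 0.0023 for Gclc and 0.01001 for Srxn1. With 1 library left out, Ifnb1eGFP supernatant against rIFNβ ran from -0.0997 to 0.378 for Nqo1, -0.134 to 0.0490 for Prdx1 and -0.0766 to 0.0087 for G6pdx. The interaction of G6pdx ran from -0.0233 to 0.0595. Supernatant over both IFNβ states ran from -0.0164 to 0.0274 for Nfe2l2, -0.205 to 0.0347 for Nqo1, -0.0177 to 0.0377 for Gclm, -0.0333 to 0.0041 for Gclc and -0.0286 to 0.0103 for Srxn1.

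Libraries that share a replicate number deviated together weakly (r of 0.0582 to 0.252 over 18 pairs, 13 above 0.1), and 12 of 12 libraries correlated best with their own number, a hint from the data and not from the design. With the replicate block the members called with Ifnb1eGFP supernatant were 9, G6pdx being higher, and the calls over all genes for eGFP supernatant against untreated control rose from 45 to 122. Low counts limit Nqo1 (80 to 225 a library) and Nos2 (1 to 13).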
